A study of Arabidopsis thaliana with 4 samples.

Results

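Shoot apices of Arabidopsis thaliana plants that carried the nse4a-2 mutation and had spent 24 h in 20 µM zebularine (nse4a-2_zeb, 2 libraries) were set against apices of untreated wild-type plants (WT_ctrl, 2 libraries). The comparison sets 4 of the 8 libraries of the series against each other, over the 32356 genes of the deposited table that have read counts, of which 19682 passed a filter on low counts and were tested. The spread was estimated from all 8 libraries in 1 fit, and the 4 libraries fitted alone gave 7854 calls where that fit gave 6613. The other groups, the mutant without drug (nse4a-2_ctrl) and the wild type in zebularine (WT_zeb), have 2 libraries each and serve here to place the change under mutation alone and under drug alone beside the change under both. All plants were of ecotype Col-0, germinated without drug on solid medium, grown for 9 days in long days and moved to liquid medium with or without 20 µM zebularine, so the untreated groups shared the move to liquid. After 24 h, at an age of 10 days, the drug was washed off, leaves, hypocotyls and roots were cut away, and poly(A) RNA of the remaining apices was sequenced as single-end reads. The labels name the allele but give neither its lesion, nor the hour of harvest, nor the number of plants in a library.

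NSE4A encodes the kleisin that closes the ring of the SMC5/6 complex, an ATPase that embraces DNA and is needed to finish replication and to repair breaks by recombination. Zebularine is a cytidine analogue that is built into DNA during replication and traps DNA methyltransferases there, so that it leaves crosslinked protein on DNA as well as less methylated DNA. In plants the transcription factor SOG1, switched on by the kinases ATM and ATR, raises many genes after DNA damage, and the dividing cells of the shoot apex are known to halt the cell cycle in response. One SMC5/6 subunit, SNI1, was first found as a repressor of salicylic acid defence genes.

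In nse4a-2_zeb, 3585 of 19682 genes tested were higher than in WT_ctrl (18.2%) and 3028 were lower (15.4%), which together made 6613 genes (33.6%) at an adjusted p below 0.05 in edgeR's quasi-likelihood test. Genes past this threshold are called in what follows, and the counts of called members of each gene list are to be read against these shares. The called genes had a median absolute log2 fold change of 0.84, while the median over all genes tested was −0.03. Rises were larger than falls: 1953 genes (9.92% of those tested) were called higher by at least 2-fold and 728 (3.7%) lower by as much, and at 4-fold or more the counts were 880 and 146. In nse4a-2_ctrl, 449 genes were called higher (2.28%) and 168 lower (0.854%) than in WT_ctrl, 617 genes together (3.13%), and in WT_zeb 327 were called higher (1.66%) and 125 lower (0.635%), 452 together (2.3%). These comparisons share the WT_ctrl libraries with the first, so their values are given side by side and not counted as separate evidence. Against the mutant without drug, nse4a-2_zeb had 1760 genes higher (8.94%) and 1129 lower (5.74%), and against the wild type in drug it had 2541 higher (12.9%) and 1789 lower (9.09%).

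The total read count of a library ran from 15360494 to 19811948, where 3 reads correspond to 0.147 to 0.192 CPM (counts scaled to the library's total after TMM correction), and the file headers call the libraries biological replicates R1 and R2. With 2 libraries a group, p-values weigh a change against the spread estimated from all 8 libraries, which covers only the variation between these libraries. Several stress genes differed between both WT_ctrl libraries: WRKY33, a regulator of camalexin synthesis, had 13.2 CPM in R1 and 67 CPM in R2, and LBD41, a hypoxia-responsive gene, had 40.9 and 121 CPM. Without WT_ctrl R1 the fit called 3146 genes, without WT_ctrl R2 4305, without nse4a-2_zeb R2 3261 and without nse4a-2_zeb R1 4621. The share of higher genes among the calls, 54.2% with all libraries, was 65.6% without WT_ctrl R1 and 64.6% without nse4a-2_zeb R2. The calls for mutation alone fell to 130 without WT_ctrl R1, 136 without nse4a-2_ctrl R2, 359 without nse4a-2_ctrl R1 and 400 without WT_ctrl R2. Those for drug alone fell to 23 without WT_ctrl R1, 254 without WT_zeb R1 and 283 without WT_zeb R2. In bulk apices, a change in the share of a cell type and a change in RNA per cell cannot be told apart.

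**Figure D1:**
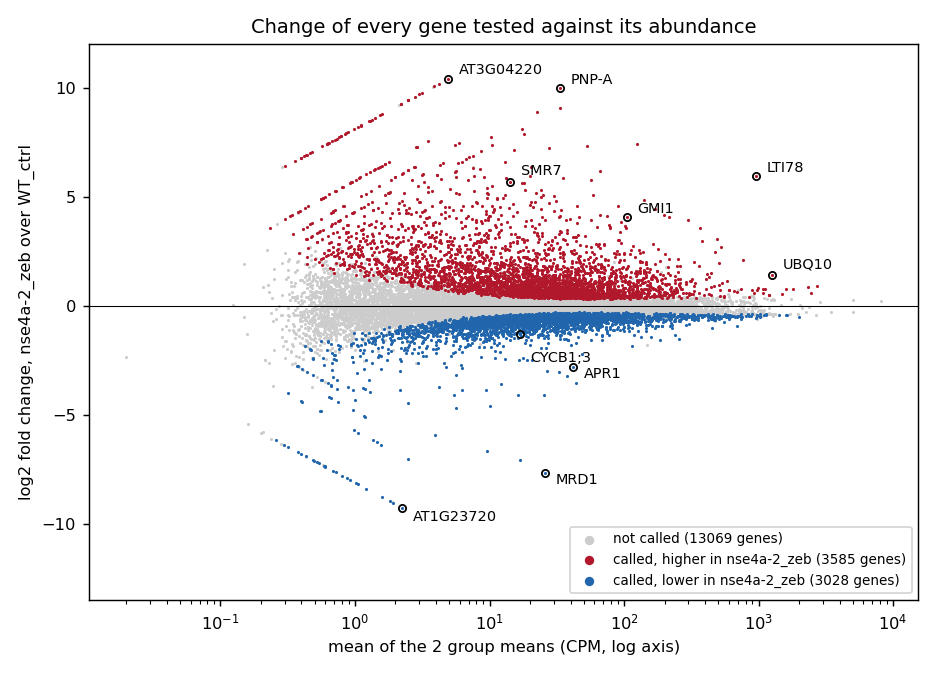
Log2 fold change of nse4a-2_zeb over WT_ctrl (vertical axis) against the mean of both group means in CPM (horizontal log axis) for the 19682 genes tested, with genes called higher in red, called lower in blue and not called in grey. The 3585 red points reach further from 0 than the 3028 blue ones, and the straight diagonal bands at low abundance are genes with no or few reads in one group, whose fitted change is set by the prior count.

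NSE4A (AT1G51130), the mutated gene, had 18.5 and 21.1 CPM in nse4a-2_zeb, 8.39 and 7.79 CPM in nse4a-2_ctrl, 10.5 and 12.9 CPM in WT_zeb, and 10.7 and 9.22 CPM in WT_ctrl. Its reads were thus about as frequent in the untreated mutant as in the wild type, and since the lesion is not given, the gene's count does not check the genotype. It was higher in nse4a-2_zeb than in WT_ctrl, with a log2 fold change of 0.99 ± 0.17 (SE, edgeR adjusted p = 0.00203). The departure of that change from the sum of both changes alone was 1.06 on the log2 scale and was not called (edgeR adjusted p = 0.0771). Of the 8 subunit genes tested, no other was called. SMC5, which pairs with SMC6 in the ring, had 44.9 and 39.9 CPM in nse4a-2_zeb and 31.4 and 34.6 CPM in WT_ctrl, and its partner SMC6B had 33.2 and 31.5 against 30.7 and 31 CPM. SMC5 was called higher when either nse4a-2_ctrl library was left out (log2 0.37). NSE4B, the second kleisin gene, had no reads in any of the 8 libraries.

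Genes that DNA damage raises were among the clearest rises. Of 20 tested members of a list of damage-inducible genes, 16 were called higher in nse4a-2_zeb and 2 lower, with a median log2 fold change of 1.22 against −0.03 over all genes tested. Their summed level was 1229 and 1297 CPM in nse4a-2_zeb, 677 and 733 CPM in nse4a-2_ctrl, 625 and 600 CPM in WT_zeb, and 470 and 485 CPM in WT_ctrl. Mutation alone and drug alone each had 7 members called higher and none lower, with medians of 0.50 and 0.62.

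GMI1, an SMC-hinge-like protein gene induced by irradiation and mitomycin C, had 190 and 203 CPM in nse4a-2_zeb, 50.4 and 61 CPM in nse4a-2_ctrl, 36.7 and 35.9 CPM in WT_zeb, and 9.52 and 14 CPM in WT_ctrl. The 4 groups did not overlap, and the group with both mutation and drug stood above each of the others. Its log2 fold change was 4.07 ± 0.19 over WT_ctrl (SE, edgeR adjusted p = 2.93e-06), against 2.25 under mutation alone and 1.63 under drug alone. NAC085, a SOG1-related NAC factor, had 17.7 and 23.3 CPM in nse4a-2_zeb and 0.0551 and 0.128 CPM in WT_ctrl, which are 683 reads against 3. That ratio was 232, with a 95% counting interval of 79.2 to 1129. Its relative NAC044, which acts with it to stop the cycle before mitosis, had 57.8 and 65.1 CPM in nse4a-2_zeb, 14.8 and 21.2 CPM in nse4a-2_ctrl, a mean of 17.3 ± 0.138 CPM in WT_zeb (SD, n = 2), and 3.69 and 3.59 CPM in WT_ctrl, a log2 fold change of 4.08 ± 0.19 (SE, edgeR adjusted p = 3.2e-06).

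SMR7, an inhibitor of cyclin-dependent kinases and a direct target of SOG1, had 28.6 and 27.2 CPM in nse4a-2_zeb, 4.2 and 5.19 CPM in nse4a-2_ctrl, 4.31 and 2.52 CPM in WT_zeb, and 0.606 and 0.448 CPM in WT_ctrl. Its log2 fold change of 5.69 ± 0.32 (SE, edgeR adjusted p = 5.53e-06) lay close to the sum of 3.13 under mutation and 2.67 under drug, from which it departed by −0.11 (edgeR adjusted p = 0.943). SOG1 is known to bind a palindrome of CTT and AAG with any 7 bases between them, which reads the same on both strands. The 250 bases before the annotated start of SMR7 (chr3:10231568-10231817, minus strand) and of NAC044 (chr3:228825-229074, plus strand) hold 1 copy each, shown in capitals, in RefSeq's TAIR10.1 sequence.
SMR7: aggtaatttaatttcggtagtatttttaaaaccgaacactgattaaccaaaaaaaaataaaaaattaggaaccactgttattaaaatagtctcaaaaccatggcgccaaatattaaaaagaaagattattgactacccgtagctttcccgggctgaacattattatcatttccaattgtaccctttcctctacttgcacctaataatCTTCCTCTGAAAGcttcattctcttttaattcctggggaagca
NAC044: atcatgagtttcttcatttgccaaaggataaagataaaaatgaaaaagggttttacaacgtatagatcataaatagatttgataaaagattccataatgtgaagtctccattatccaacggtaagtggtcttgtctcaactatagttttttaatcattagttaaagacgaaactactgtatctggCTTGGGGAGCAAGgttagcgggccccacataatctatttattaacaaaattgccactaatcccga
The match ended 30 bases before the start in SMR7 and 52 bases before it in NAC044. In the wider window of 250 bases before to 50 after the start, used for every share of promoters given here, it was present in 9 of 21 genes of the list (42.9%), against 11.4% of all 31891 promoters, 12.7% of those of genes called higher and 18.5% of those of genes called higher at least 4-fold. A match describes letters in this window and is no evidence of binding.

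Other members of the damage-inducible list rose by less. BRCA1, which acts in repair by recombination, had 79.1 and 92.1 CPM in nse4a-2_zeb against 24.8 and 28.6 CPM in WT_ctrl (log2 1.68). PARP2, a poly(ADP-ribose) polymerase gene, averaged 101 ± 5.09 CPM in nse4a-2_zeb and 19.5 ± 2.80 CPM in WT_ctrl (SD, n = 2 each; log2 2.38 ± 0.13, SE, edgeR adjusted p = 4.37e-06). The members called lower were BARD1, the partner of BRCA1 (log2 −0.82), and WEE1, a kinase that holds the cycle after replication stress (log2 −0.53). Of 16 tested genes that sense damage or act in repair without being known chiefly for induction, 2 were called higher and 4 lower, with a median of −0.13, and the lower calls were 0 without nse4a-2_zeb R2, 0 without WT_ctrl R2 and 1 without WT_ctrl R1. RAD17, whose product loads the checkpoint clamp, stood apart with 33 and 38.1 CPM in nse4a-2_zeb, against 7.54 and 9.35 CPM in WT_ctrl (log2 2.08). SOG1 itself had 23.2 and 26.2 CPM in nse4a-2_zeb and 19.4 and 21.4 CPM in WT_ctrl, and ATM had 53.4 and 52.2 against 71.3 and 68.8 CPM. Neither passed the test.

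**Figure D2:**
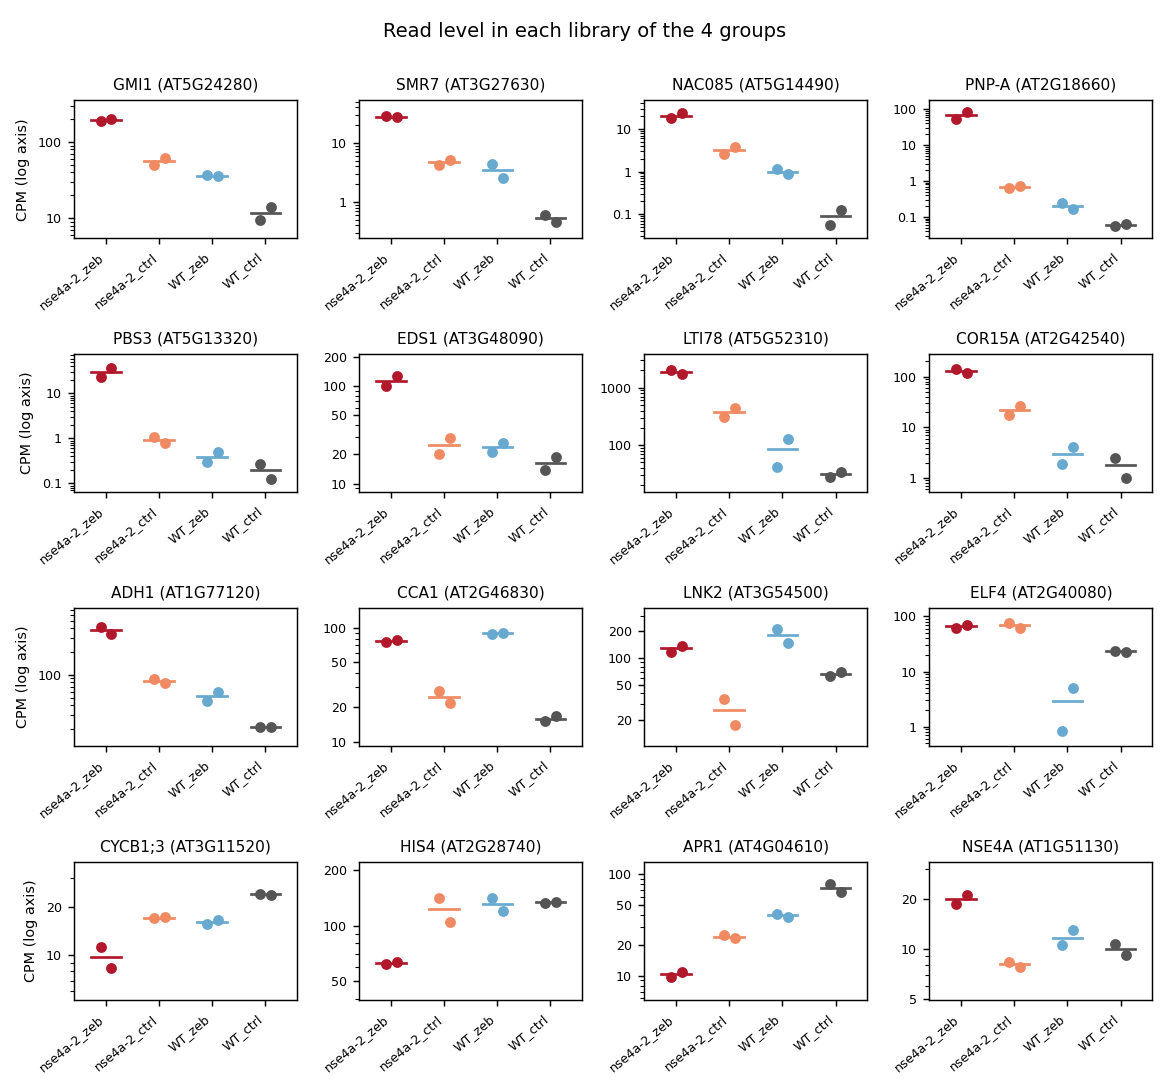
Level in CPM (log axes, a scale of its own in each panel) of 16 genes in each library, with the groups nse4a-2_zeb, nse4a-2_ctrl, WT_zeb and WT_ctrl from left to right, points for libraries and bars for group means. GMI1, SMR7 and NAC085 step down from nse4a-2_zeb through the groups with mutation or drug alone to WT_ctrl, HIS4 is lowest in nse4a-2_zeb, and ELF4 and LNK2 lie apart in opposite directions in nse4a-2_ctrl and WT_zeb.

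Genes of cell division fell. Of 23 tested genes that peak in G2 and mitosis, 18 were called lower in nse4a-2_zeb and none higher, with a median log2 fold change of −0.90. Their summed level was 773 and 619 CPM in nse4a-2_zeb and 1343 and 1208 CPM in WT_ctrl. Drug alone had 4 members called lower (median −0.58) and mutation alone none (median −0.20). The B-type cyclin gene CYCB1;3 had 11.3 and 8.41 CPM in nse4a-2_zeb, 17.1 and 17.2 CPM in nse4a-2_ctrl, 15.7 and 16.5 CPM in WT_zeb, and 23.9 and 23.7 CPM in WT_ctrl (log2 −1.28 ± 0.16, SE, edgeR adjusted p = 0.000404). All its libraries of the 3 other groups lay above both nse4a-2_zeb libraries. MAD2, of the spindle checkpoint, fell by 1.19 on the log2 scale and the Aurora kinase gene AUR1 by 1.04. CDC20.1, whose product switches on anaphase, fell by 1.15, but it has a close copy in CDC20.2 and the authors' counting could have split reads between them. An exception among cyclins was CYCB1;1, listed with the damage genes because DNA breaks raise it: it had 74.6 and 68.6 CPM in nse4a-2_zeb, 45.9 and 51.2 CPM in nse4a-2_ctrl, 26.9 and 33.5 CPM in WT_zeb, and 36.8 and 34.5 CPM in WT_ctrl (log2 1.01 ± 0.13, SE, edgeR adjusted p = 0.00052).

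Many G2 and mitosis genes are known to carry the core AACGG of the element bound by 3-repeat MYB factors. The 250 bases before the start of CYCB1;3 (chr3:3627274-3627523, minus strand, TAIR10.1, RefSeq) hold 3 copies, counted on both strands, so that a copy on the other strand reads CCGTT.
CYCB1;3: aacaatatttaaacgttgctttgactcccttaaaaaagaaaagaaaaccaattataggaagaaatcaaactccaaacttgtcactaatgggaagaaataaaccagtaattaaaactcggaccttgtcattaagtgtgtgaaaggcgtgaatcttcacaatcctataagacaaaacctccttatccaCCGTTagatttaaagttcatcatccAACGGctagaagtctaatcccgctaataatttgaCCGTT
The core was present in 16 of 23 promoters of the list (69.6%), against 24.9% of all promoters, 30.9% of those of genes called lower and 23% of those of genes called higher.

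Of 13 tested histone H3.1 and H4 genes, which are transcribed in S phase, 12 were called lower in nse4a-2_zeb and none higher, with a median of −0.91. Under mutation alone 1 member was called higher and 1 lower, and under drug alone none was called, with medians of −0.11 and −0.02. The summed level was 920 and 970 CPM in nse4a-2_zeb, 1930 and 1618 CPM in nse4a-2_ctrl, 1982 and 1668 CPM in WT_zeb, and 1799 and 1820 CPM in WT_ctrl, so both nse4a-2_zeb libraries lay below all others. The H4 gene HIS4 had 62 and 63.5 CPM in nse4a-2_zeb and 133 and 134 CPM in WT_ctrl (log2 −1.09 ± 0.15, SE, edgeR adjusted p = 0.000754). Single departures rest on few libraries, and over all genes tested 44 below the sum of both changes alone were called (0.224%). Not all of these 44 genes fell, since some rose by less than the sum. Among them were 5 members of the histone list. AT1G07660, which was not among these 5, fell most of the whole list, to a mean of 17.2 ± 0.622 CPM in nse4a-2_zeb (SD, n = 2). It had 31.3 and 22.3 CPM in nse4a-2_ctrl, 67.2 and 53.3 CPM in WT_zeb, and 77.5 and 83.1 CPM in WT_ctrl. Its log2 fold change was −2.22 under both and already −1.59 under mutation alone, and its departure of −0.22 was not called (edgeR adjusted p = 0.738). Histone genes of this list have near-identical copies, so the level of any one is uncertain.

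Of 22 tested genes of DNA replication, 13 were called lower and none higher, with a median of −0.50, and the count was 6 without WT_ctrl R1 and 7 without nse4a-2_zeb R2. PCNA1, a sliding clamp gene, had 44.5 and 44.6 CPM in nse4a-2_zeb and 73.2 and 79.6 CPM in WT_ctrl (log2 −0.78). The helicase subunit gene MCM4 had 46.7 and 44.8 against 73.9 and 79.3 CPM (log2 −0.74), while the regulator E2FA had 24.7 and 22.1 against 22.1 and 23.1 CPM and was not called. Among 11 tested inhibitors of cyclin-dependent kinases, SMR7 and KRP6 were called higher and 5 of the KRP family lower. SMR4 and SMR5, which are on the damage-inducible list with SMR7, were not called higher. KRP6 had 17 and 22.9 CPM in nse4a-2_zeb and 5.56 and 4.61 CPM in WT_ctrl (log2 1.97), whereas KRP3 had 6.85 and 8.93 against 20.7 and 18.2 CPM. The 5 lower calls were 3 when any 1 library of nse4a-2_zeb or WT_ctrl was left out.

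Genes of the salicylic acid branch of immunity rose with few exceptions. Of 23 tested genes for synthesis of salicylic acid or N-hydroxypipecolate, their perception and their targets, 21 were called higher in nse4a-2_zeb and none lower, with a median log2 fold change of 2.97. Mutation alone had 3 members called higher (median 0.62) and drug alone 1 (median 0.56). The departure from the sum of both changes alone was called for 3 members, all above 0, against 108 genes called so in the whole table (0.549%). The summed level was 789 and 1129 CPM in nse4a-2_zeb, 256 and 265 CPM in nse4a-2_ctrl, 329 and 311 CPM in WT_zeb, and 158 and 238 CPM in WT_ctrl.

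PNP-A, which encodes a small secreted natriuretic-like peptide and is a known salicylic acid marker, had 52 and 81.6 CPM in nse4a-2_zeb, 0.636 and 0.742 CPM in nse4a-2_ctrl, 0.245 and 0.164 CPM in WT_zeb, and 0.0551 and 0.064 CPM in WT_ctrl. Those are 2234 reads against 2 in WT_ctrl, a ratio of 1140 with a 95% counting interval of 315 to 9417 (edgeR adjusted p = 1.8e-06). PBS3, the enzyme that joins glutamate to isochorismate on the way to salicylic acid, had 22.9 and 37.6 CPM in nse4a-2_zeb, 1.08 and 0.804 CPM in nse4a-2_ctrl, 0.294 and 0.492 CPM in WT_zeb, and 0.275 and 0.128 CPM in WT_ctrl. Both genes lay near 1 CPM or below in all libraries of the other groups. ICS1, which starts that route, had 34.1 and 41.5 CPM in nse4a-2_zeb against 11 and 13.2 CPM in WT_ctrl (log2 1.65), and EDS5, the transporter that exports isochorismate from plastids, had 35.9 and 52.9 against 4.46 and 5.25 CPM (log2 3.20). FMO1, which makes N-hydroxypipecolate, reached 4.19 and 7.38 CPM in nse4a-2_zeb, against 0.165 and 0.256 CPM in WT_ctrl.

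The lipase-like signalling partners moved together. EDS1 had 99.5 and 127 CPM in nse4a-2_zeb, 20.3 and 29.2 CPM in nse4a-2_ctrl, 21.2 and 25.8 CPM in WT_zeb, and 13.7 and 18.7 CPM in WT_ctrl (log2 2.81 ± 0.22, SE, edgeR adjusted p = 3.62e-05). PAD4 rose by 4.41 and SAG101 by 2.43 on the log2 scale. The receptor gene NPR1 had 55.3 and 74.1 CPM in nse4a-2_zeb and 27.8 and 34.7 CPM in WT_ctrl (log2 1.05). Its relative NPR4 had 12.4 and 14.2 against 13.6 and 13.7 CPM and was not called, like EPS1, with 4.25 and 4.32 against 4.9 and 5.7 CPM. The defence protein gene PR1 had 6.03 and 11.5 CPM in nse4a-2_zeb, 4.96 and 8.66 CPM in nse4a-2_ctrl, 0.392 and 0.492 CPM in WT_zeb, and 0.495 and 1.79 CPM in WT_ctrl, so the mutant without drug overlapped the mutant with drug.

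WRKY factors, many of which act in this branch, bind sites with the core TTGAC. The 250 bases before the start of PNP-A (chr2:8091737-8091986, minus strand, TAIR10.1, RefSeq) hold 1 copy, 9 bases before the start, searched on both strands and shown in capitals.
PNP-A: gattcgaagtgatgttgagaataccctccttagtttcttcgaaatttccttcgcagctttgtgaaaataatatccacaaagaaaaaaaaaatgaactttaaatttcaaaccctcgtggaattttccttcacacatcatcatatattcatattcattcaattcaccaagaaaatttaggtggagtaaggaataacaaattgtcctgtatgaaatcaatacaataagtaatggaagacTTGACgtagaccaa
TTGAC was present in 16 of 25 promoters of the list (64%), in 58.7% of those of all genes called higher, in 66.6% of those called higher at least 4-fold, in 45.8% of those called lower and in 50.1% of all promoters, so the list's share is near that of the called rises.

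Immune receptors and camalexin genes rose too. All 9 tested helper NLR and pattern receptor genes of the list were called higher, with a median of 1.85, whereas drug alone had 1 of them called higher and mutation alone none. ADR1-L1, a helper NLR gene, had 146 and 191 CPM in nse4a-2_zeb, 44.5 and 61.9 CPM in nse4a-2_ctrl, 47.3 and 60.4 CPM in WT_zeb, and 24.4 and 38.1 CPM in WT_ctrl (log2 2.43 ± 0.25, SE, edgeR adjusted p = 0.000153). EFR, the receptor for bacterial elongation factor Tu, averaged 17.2 ± 0.492 CPM in nse4a-2_zeb (SD, n = 2) and had 4.32 and 5.69 CPM in nse4a-2_ctrl, 3.18 and 5.14 CPM in WT_zeb, and 4.51 and 4.42 CPM in WT_ctrl. The nse4a-2_zeb libraries lay above all 6 others, and the departure from the sum was 1.89 on the log2 scale (edgeR adjusted p = 0.0463). Of 8 camalexin genes 6 were called higher, with a median of 2.32. GSTF6, a glutathione transferase gene of that pathway, had 280 and 370 CPM in nse4a-2_zeb, 35.9 and 43.7 CPM in nse4a-2_ctrl, 54.7 and 55.4 CPM in WT_zeb, and 12.6 and 17.7 CPM in WT_ctrl (log2 4.43). CYP71A12 rose by 6.28 on the log2 scale, but it has a close copy in CYP71A13 and its count is uncertain.

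**Figure D3:**
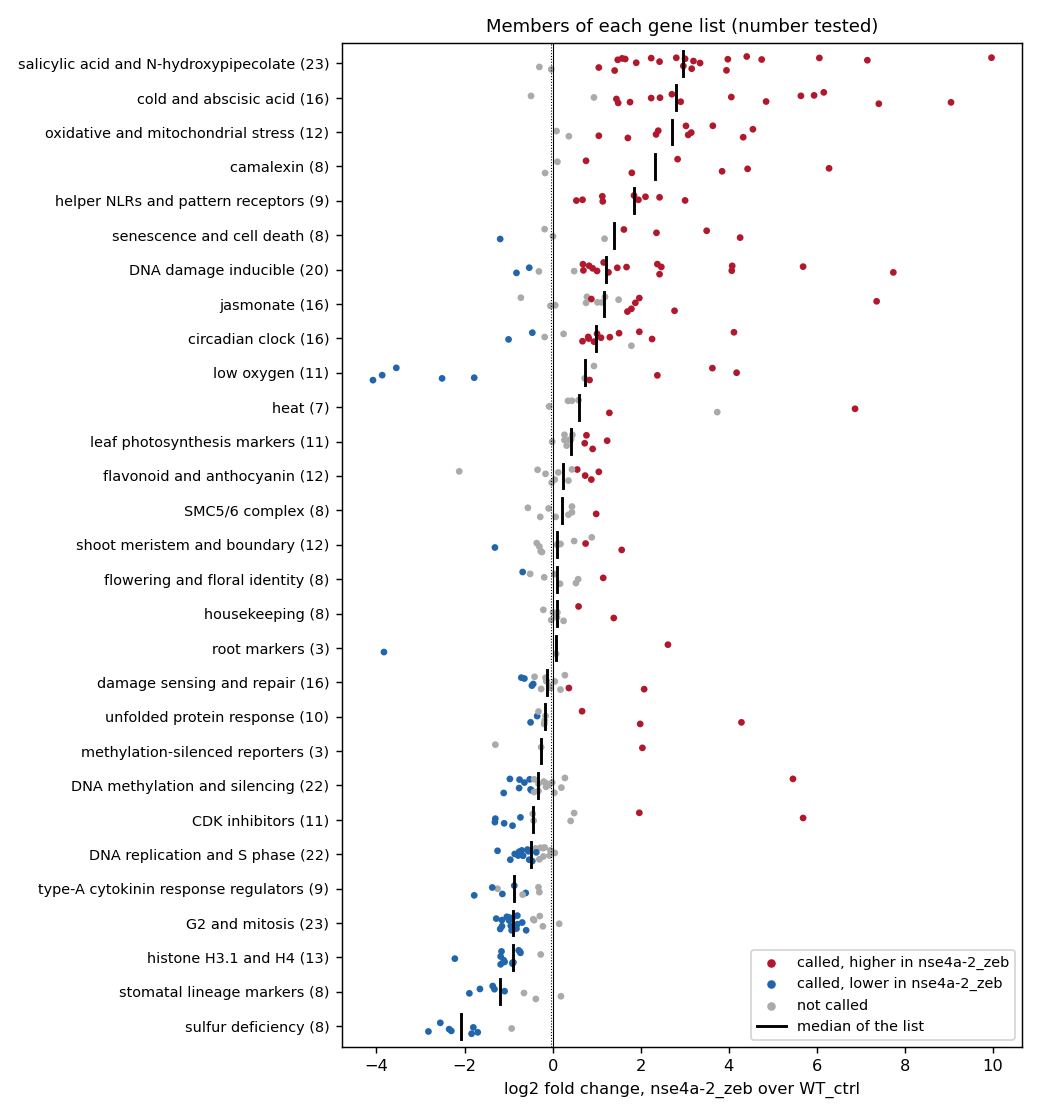
Log2 fold change of nse4a-2_zeb over WT_ctrl (horizontal axis) for the tested members of 29 gene lists, ordered by their median (bar) from highest at the top, with the number tested in brackets, red for members called higher, blue for called lower and grey for not called. Salicylic acid genes reach from −0.30 to 9.97 and G2 and mitosis genes from −1.28 to 0.15, and the dotted line marks the median of −0.03 over all genes tested.

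Some immune genes had no read at all in WT_ctrl. In 63 genes there were 0 reads in both WT_ctrl libraries and at least 20 in nse4a-2_zeb, and 45 of them were called. They were picked by the counts that the test also used, so their being called is no further evidence. Those not called include genes that did not pass the filter and were not tested. AT3G04220, annotated as a TIR-NBS-LRR disease resistance protein, had 106 and 226 reads in nse4a-2_zeb, 3 and 2 reads in nse4a-2_ctrl, 4 and 17 reads in WT_zeb, and none in WT_ctrl. It was at least 113-fold higher against a floor of 3 reads over both WT_ctrl libraries. By the same floor AT1G57630, a TIR-domain gene, was at least 71.4-fold higher, the U-box ubiquitin ligase gene PUB54 at least 68-fold, and the heme oxygenase gene HO4 at least 63.3-fold. CYP82G1, a P450 that makes volatile homoterpenes, was at least 56.5-fold higher. SK9, a SKP1-like gene, had 113 and 166 reads against none (at least 94.9-fold higher), and UGE5, a UDP-glucose epimerase gene, had 88 and 171 reads (at least 88.1-fold higher). AT1G58684 had 239 reads in nse4a-2_zeb R1 and none in R2, was not called, and has near-identical copies. The receptor kinase gene CRK37 had 31 and 73 reads in nse4a-2_zeb and 0 in the 6 libraries of the other groups. In the other direction, 33 genes had 0 reads in nse4a-2_zeb and at least 20 in WT_ctrl, of which 24 were called, with the same limits.

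Cold and abscisic acid responsive genes formed another large rise. Of 16 tested members 14 were called higher and none lower, with a median of 2.81, and mutation alone already had 10 called higher (median 1.88), whereas drug alone had 2 called higher and 1 lower (median 0.73). The summed level was 5417 and 4702 CPM in nse4a-2_zeb, 1397 and 1671 CPM in nse4a-2_ctrl, 533 and 779 CPM in WT_zeb, and 429 and 503 CPM in WT_ctrl. LTI78, whose promoter is a classical reporter of cold and drought, had 2071 and 1720 CPM in nse4a-2_zeb, 308 and 440 CPM in nse4a-2_ctrl, 41.7 and 127 CPM in WT_zeb, and 28.1 and 33.6 CPM in WT_ctrl. That was the largest gain in CPM of any called gene, with a log2 fold change of 5.94 ± 0.49 (SE, edgeR adjusted p = 4.85e-05). GOLS3, a cold-induced galactinol synthase gene, had 69.2 and 64.1 CPM in nse4a-2_zeb, 2.29 and 6.18 CPM in nse4a-2_ctrl, 0.343 and 1.48 CPM in WT_zeb, and 0.165 and 0.064 CPM in WT_ctrl (log2 9.05). The dehydrin gene LTI30 rose by 7.41 on the log2 scale. The CBF regulators upstream of many of these genes moved less: CBF3 averaged 15.9 ± 8.15 CPM in nse4a-2_zeb and 3.40 ± 2.16 CPM in WT_ctrl (SD, n = 2 each; log2 2.24), and CBF2, with 31 and 52.6 against 10.9 and 33 CPM, was not called.

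COR15A, which encodes a chloroplast stroma protein that protects membranes from freezing, had 144 and 117 CPM in nse4a-2_zeb, 17.7 and 26.7 CPM in nse4a-2_ctrl, 1.91 and 4.1 CPM in WT_zeb, and 2.53 and 1.02 CPM in WT_ctrl (log2 6.16 ± 0.39, SE, edgeR adjusted p = 1.19e-05). The drug alone overlapped WT_ctrl, and the mutation alone did not. Its promoter is printed for the palindromic G-box CACGTG, the core of many abscisic acid and light response elements, in capitals (chr2:17712331-17712580, minus strand, TAIR10.1, RefSeq).
COR15A: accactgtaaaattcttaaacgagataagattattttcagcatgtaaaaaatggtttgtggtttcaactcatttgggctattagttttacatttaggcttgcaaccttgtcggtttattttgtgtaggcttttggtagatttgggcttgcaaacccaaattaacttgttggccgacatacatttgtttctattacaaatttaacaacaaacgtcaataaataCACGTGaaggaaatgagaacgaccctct
The box ended 22 bases before the start. It was present in 5 of 19 promoters of the cold list (26.3%) and 9 of 16 of the clock list (56.2%), against 7% of all promoters, 10.3% of those of genes called higher and 7.94% of those called lower.

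Genes of oxidative and mitochondrial stress rose in 10 of 12 tested members, with a median of 2.71, against 4 called higher under mutation alone (median 1.03) and 4 under drug alone (median 1.25). AOX1A, the alternative oxidase gene that marks mitochondrial retrograde signals, had 39.9 and 43.5 CPM in nse4a-2_zeb, 7.25 and 12.4 CPM in nse4a-2_ctrl, 9.06 and 11.8 CPM in WT_zeb, and 4.24 and 5.64 CPM in WT_ctrl (log2 3.08). GSTU24, a tau-class glutathione transferase gene, had 16.9 and 19.1 CPM in nse4a-2_zeb and 0.771 and 1.02 CPM in WT_ctrl (log2 4.33). Both groups with mutation or drug alone lay between those values for AOX1A.

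The low oxygen list split. Of 11 tested members 4 were called higher and 5 lower. ADH1, alcohol dehydrogenase of fermentation, had 421 and 334 CPM in nse4a-2_zeb, 88.4 and 77.5 CPM in nse4a-2_ctrl, 46.1 and 59.6 CPM in WT_zeb, and 20.9 and 20.7 CPM in WT_ctrl (log2 4.18 ± 0.18, SE, edgeR adjusted p = 2.45e-06). SUS1, a sucrose synthase gene, had 110 and 122 CPM in nse4a-2_zeb, 25.2 and 29 CPM in nse4a-2_ctrl, 14.7 and 14.8 CPM in WT_zeb, and 8.31 and 10.5 CPM in WT_ctrl. In contrast PCO2, a plant cysteine oxidase gene that hypoxia induces, had 0.698 and 0.865 CPM in nse4a-2_zeb, 6.29 and 3.34 CPM in nse4a-2_ctrl, 5.1 and 5.42 CPM in WT_zeb, and 6.17 and 17.2 CPM in WT_ctrl (log2 −3.87). HRA1, a repressor of the hypoxia response, had 3.49 and 2.19 CPM in nse4a-2_zeb and 26.3 and 69.9 CPM in WT_ctrl (log2 −4.08). WT_ctrl R2 was the highest library for HRA1 and PCO2, and it stood above WT_ctrl R1 by more than 2-fold. As background, ADH1 and SUS1 are also known to respond to cold.

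**Figure D4:**
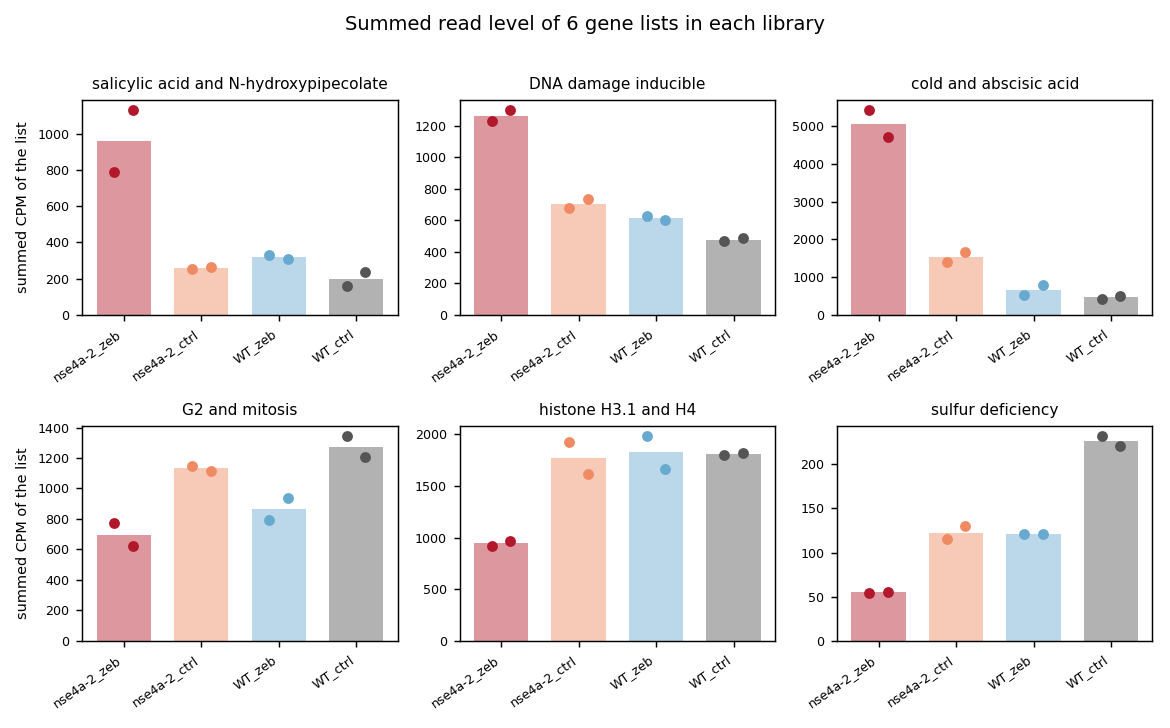
Summed level in CPM of the members of 6 gene lists in each library (points) with the group mean (bar), for nse4a-2_zeb, nse4a-2_ctrl, WT_zeb and WT_ctrl from left to right. Salicylic acid, damage and cold lists are highest in nse4a-2_zeb, the sulfur list is lowest there with 54.3 and 55 CPM, and the histone list is lowest there with 920 and 970 CPM.

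Most clock genes were higher in nse4a-2_zeb. Of 16 tested members 11 were called higher in nse4a-2_zeb and 2 lower, with a median of 0.98, while drug alone had 6 called higher and 5 lower (median −0.01) and mutation alone 1 higher and 3 lower (median −0.05). The 11 rises were 7 without nse4a-2_zeb R2. The morning gene CCA1 had 74.8 and 77.3 CPM in nse4a-2_zeb, 27.7 and 21.7 CPM in nse4a-2_ctrl, 87.2 and 90.6 CPM in WT_zeb, and 15 and 16.7 CPM in WT_ctrl. Its log2 fold change of 2.26 ± 0.14 (SE, edgeR adjusted p = 9.51e-06) stood beside 2.49 under drug alone and 0.64 under mutation alone. The evening gene ELF4 had 62 and 70.3 CPM in nse4a-2_zeb, 75.7 and 62 CPM in nse4a-2_ctrl, 0.833 and 5.03 CPM in WT_zeb, and 23.5 and 22.9 CPM in WT_ctrl. So the morning gene was high in both drug groups, and the evening gene was high in both mutant groups and low only in the wild type with drug. TOC1, another evening gene, had 246 and 289 CPM in nse4a-2_zeb, 198 and 211 CPM in nse4a-2_ctrl, 51.1 and 84.2 CPM in WT_zeb, and 131 and 134 CPM in WT_ctrl. PRR3 went the other way, with a mean of 18.2 ± 1.19 CPM in nse4a-2_zeb (SD, n = 2), 17.1 and 17.1 CPM in nse4a-2_ctrl, 3.72 and 6.45 CPM in WT_zeb, and 43.1 and 29.6 CPM in WT_ctrl. The hour of harvest is not given, so a difference in hour and a change of the clock genes by drug or mutation cannot be told apart. The evening element AAAATATCT, searched on both strands, was present in 5 of 16 promoters of the list (31.2%), against 2.62% of all promoters, 5.12% of those of genes called higher and 1.89% of those called lower.

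LNK2, a coactivator of the morning loop, was called in opposite directions under each change alone. It had 118 and 138 CPM in nse4a-2_zeb, a mean of 25.9 ± 12 CPM in nse4a-2_ctrl (SD, n = 2), 214 and 148 CPM in WT_zeb, and 62.9 and 70.3 CPM in WT_ctrl, so log2 changes were 0.94 under both, −1.36 under mutation and 1.44 under drug. The change under both was not called without any 1 library of nse4a-2_zeb or WT_ctrl (log2 0.82 to 1.05) nor by DESeq2. AT4G30650, annotated as a low temperature and salt responsive protein, had 252 and 210 CPM in nse4a-2_zeb, 137 and 147 CPM in nse4a-2_ctrl, 11.8 and 24.5 CPM in WT_zeb, and 66.4 and 50.2 CPM in WT_ctrl. It rose with the mutation, fell with the drug, and was highest with both.

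Sulfur deficiency genes fell. Of 8 tested members 7 were called lower and none higher, with a median of −2.07, against 3 lower under mutation alone and 5 under drug alone. APR1, which reduces activated sulfate, had 9.65 and 11 CPM in nse4a-2_zeb, 25.4 and 23.4 CPM in nse4a-2_ctrl, 40.9 and 37.9 CPM in WT_zeb, and 79.6 and 66.3 CPM in WT_ctrl (log2 −2.82 ± 0.14, SE, edgeR adjusted p = 3.45e-06). The groups did not overlap. The transporter gene SULTR1;2 had 0.762 and 0.519 CPM in nse4a-2_zeb and 3.52 and 4.03 CPM in WT_ctrl (log2 −2.55).

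**Figure D5:**
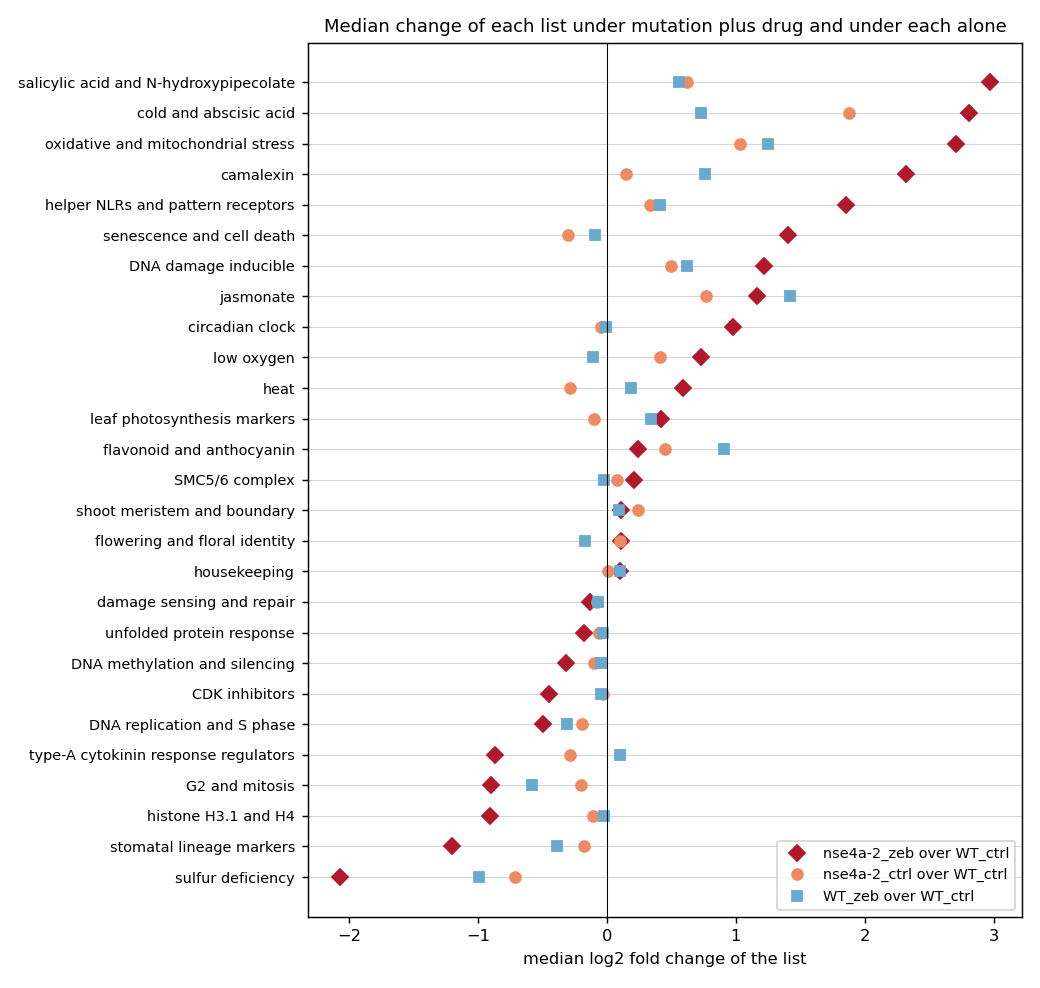
Median log2 fold change over WT_ctrl of each list with at least 5 tested members, for nse4a-2_zeb (diamonds), nse4a-2_ctrl (circles) and WT_zeb (squares), which share the WT_ctrl libraries. The diamonds lie outside both other marks for salicylic acid genes (2.97 against 0.62 and 0.56) and histones (−0.91 against −0.11 and −0.02), while for jasmonate genes the square lies highest (1.42 against 1.16 and 0.77).

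Jasmonate genes showed a smaller and less stable rise. Of 16 tested members 7 were called higher, with a median of 1.16, which became 4 without nse4a-2_zeb R2 and 3 without WT_ctrl R1. TAT3, a tyrosine aminotransferase gene that jasmonate induces, had 15.6 and 25.9 CPM in nse4a-2_zeb, 0.0636 and 0 CPM in nse4a-2_ctrl, 1.08 and 0.492 CPM in WT_zeb, and 0 and 0.256 CPM in WT_ctrl. The nse4a-2_zeb libraries lay above all others. MYC2, the master regulator of the response, had 100 and 198 CPM in nse4a-2_zeb, 128 and 182 CPM in nse4a-2_ctrl, 170 and 264 CPM in WT_zeb, and 46.2 and 101 CPM in WT_ctrl, and was not called. Among 12 tested flavonoid and anthocyanin genes, 4 were called higher in nse4a-2_zeb and 6 in WT_zeb. The 4 were 2 without either nse4a-2_zeb library or without WT_ctrl R1, and 1 without WT_ctrl R2. DFR, a late enzyme of that pathway, had 9.2 and 9.86 CPM in nse4a-2_zeb, 3.69 and 3.22 CPM in nse4a-2_ctrl, 28.5 and 23.7 CPM in WT_zeb, and 5.51 and 3.65 CPM in WT_ctrl, so the drug alone gave the highest values.

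Stomatal lineage markers fell in part. Of 8 stomatal lineage markers 5 were called lower, with a median of −1.20, and 3 were called without nse4a-2_zeb R2. EPF2, a peptide made by early stomatal precursors, had 4.76 and 4.03 CPM in nse4a-2_zeb, 18.4 and 12.7 CPM in nse4a-2_ctrl, 11.4 and 11.7 CPM in WT_zeb, and 18.2 and 14.3 CPM in WT_ctrl (log2 −1.89 ± 0.22, SE, edgeR adjusted p = 0.000328). FAMA, which acts at the last division of the lineage, had 19.1 and 20.9 CPM in nse4a-2_zeb and 18.5 and 16.6 CPM in WT_ctrl and was not called. Type-A response regulators, which cytokinin induces, had 5 of 9 tested members called lower (median −0.87), or 3 without WT_ctrl R2, and ARR15 fell by 1.78 on the log2 scale. The shoot meristem and boundary genes showed no common direction, with 2 of 12 called higher and 1 lower, against 18.2% and 15.4% of all genes tested. KNAT6, a homeobox gene of the boundary, had 21.8 and 23.8 CPM in nse4a-2_zeb and 7.87 and 7.49 CPM in WT_ctrl (log2 1.57), whereas STM, which keeps meristem cells undifferentiated, had 17.5 and 13.6 against 17.3 and 20.3 CPM and was not called. The flowering regulator SOC1 had 28.7 and 31.3 CPM in nse4a-2_zeb, 15 and 16.3 CPM in nse4a-2_ctrl, 8.67 and 13.1 CPM in WT_zeb, and 14 and 12.9 CPM in WT_ctrl (log2 1.15).

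Since zebularine acts on DNA methylation, genes of that machinery and transposable elements were read as lists of their own. Of 22 tested genes of methylation and silencing, 8 were called lower and 1 higher, and the lower calls were 3 without nse4a-2_zeb R2 or WT_ctrl R2 and 4 without nse4a-2_zeb R1 or WT_ctrl R1. DRM1, a de novo methyltransferase gene, was the rise, with 6.79 and 6.92 CPM in nse4a-2_zeb, 0.89 and 0.866 CPM in nse4a-2_ctrl, 1.27 and 0.492 CPM in WT_zeb, and 0.0551 and 0.256 CPM in WT_ctrl (log2 5.46 ± 0.59, SE, edgeR adjusted p = 0.0002). CMT3, which maintains methylation at CHG sites and is expressed in dividing cells, had 60 and 58.7 CPM in nse4a-2_zeb and 128 and 128 CPM in WT_ctrl (log2 −1.11). MET1, which maintains CG methylation, had 142 and 119 CPM in nse4a-2_zeb and 166 and 184 CPM in WT_ctrl and was not called.

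Of 2419 transposable element genes only 106 passed the filter on low counts, and 17 of them were called higher and 16 lower. These counts are near the shares over all genes tested, 18.2% higher and 15.4% lower. The median was −0.17, and the higher calls were 8 without nse4a-2_zeb R2 and 11 without WT_ctrl R2. Members that passed only through the group where they are high differ between groups by that selection. The calls among the 106 are thus affected by the filter, and they say nothing of the elements left out. AT3G55300, a copia-like element, had 35 and 38 reads in nse4a-2_zeb and none in WT_ctrl (at least 24.8-fold higher). The LINE element AT2G01550 had no reads in any library of either mutant group, 2.89 and 2.08 CPM in WT_zeb, and 3.08 and 3.27 CPM in WT_ctrl. MRD1, first named for its low level in the methionine over-accumulating mto1 mutant, had 0 and 0.461 CPM in nse4a-2_zeb, 0.0636 and 0 CPM in nse4a-2_ctrl, 55.3 and 39.2 CPM in WT_zeb, and 55.3 and 47.3 CPM in WT_ctrl. Both genes were near absent wherever the mutant genotype was present, with drug or without. SDC, a reporter gene that DNA methylation silences, had 0.19 and 0.288 CPM in nse4a-2_zeb, 0.381 and 0.247 CPM in nse4a-2_ctrl, 2.01 and 1.04 CPM in WT_zeb, and 0.22 and 1.02 CPM in WT_ctrl, and was not called.

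Smaller lists showed mixed changes, and over all genes tested 18.2% were called higher and 15.4% lower. Of 8 tested senescence and cell death genes 4 were called higher and 1 lower, but only 1 was called higher without nse4a-2_zeb R2 or without WT_ctrl R1. SAG13, an early senescence marker, had 3.24 and 4.44 CPM in nse4a-2_zeb, 0.191 and 0.0618 CPM in nse4a-2_ctrl, 0.245 and 0.0547 CPM in WT_zeb, and 0.0551 and 0.64 CPM in WT_ctrl (log2 3.50 ± 0.72, SE, edgeR adjusted p = 0.00563). ORE1, a NAC factor that promotes leaf ageing, was the lower one, with 1.9 and 2.71 CPM in nse4a-2_zeb against 4.07 and 6.53 CPM in WT_ctrl. Of 10 tested genes of the unfolded protein response 3 were called higher and 2 lower. BZIP60, a regulator of that response, had 57.3 and 89.7 CPM in nse4a-2_zeb, 31.7 and 35.7 CPM in nse4a-2_ctrl, 31.6 and 35 CPM in WT_zeb, and 14.2 and 23.1 CPM in WT_ctrl (log2 1.99), whereas the chaperone gene CNX1 fell by 0.50 on the log2 scale and was not called when any 1 library of nse4a-2_zeb or WT_ctrl was left out (log2 −0.45 to −0.55). Of 7 tested heat genes 2 were called higher, or 1 without WT_ctrl R1, and HSP90.1, a heat-induced chaperone gene, had 23.2 and 23 CPM in nse4a-2_zeb and 7.49 and 11.5 CPM in WT_ctrl (log2 1.29). Of 8 tested flowering genes 1 was called higher and 1 lower. The 3 tested reporters of silencing by methylation had 1 call, QQS, which was lost without nse4a-2_zeb R2 (log2 1.61), WT_ctrl R1 (2.83) or WT_ctrl R2 (1.58).

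In absolute level, abundant genes also moved. The polyubiquitin gene UBQ10 had 1776 and 1877 CPM in nse4a-2_zeb, 1185 and 1466 CPM in nse4a-2_ctrl, 751 and 1176 CPM in WT_zeb, and 646 and 745 CPM in WT_ctrl (log2 1.39 ± 0.21, SE, edgeR adjusted p = 0.00121). GAPC1, of glycolysis, rose by 0.59 on the log2 scale. Thus 2 of 8 tested reference genes were called higher, where 18.2% of all genes tested were. The call of GAPC1 was lost without nse4a-2_zeb R1 (log2 0.48) or WT_ctrl R1 (0.56), and UBQ10 alone was then called. The reference genes ACT2 (log2 0.11), PP2AA3 (0.01), TIP41 (0.10) and SAND (−0.03) were not called. The transporter gene PEN3 (AT1G59870), which acts in defence at the cell surface, had 1268 and 1240 CPM in nse4a-2_zeb, 383 and 747 CPM in nse4a-2_ctrl, 219 and 468 CPM in WT_zeb, and 261 and 321 CPM in WT_ctrl (log2 2.11). CR88, a plastid HSP90 chaperone gene, had 534 and 407 CPM in nse4a-2_zeb and 906 and 896 CPM in WT_ctrl (log2 −0.94).

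Markers of other tissue that a dissection could leave were read beside these results. Of 11 leaf photosynthesis markers, 4 were called higher and none lower, with a median of 0.42, and their summed level was 17104 and 15169 CPM in nse4a-2_zeb and 12571 and 10386 CPM in WT_ctrl. The 4 calls were 2 without either nse4a-2_zeb library and 1 without WT_ctrl R2. LHCB2.1, a light-harvesting gene, had 352 and 378 CPM in nse4a-2_zeb, 89.2 and 65.2 CPM in nse4a-2_ctrl, 376 and 441 CPM in WT_zeb, and 157 and 153 CPM in WT_ctrl, so both drug groups were high. All 6 root markers together came to 3.11 and 5.13 CPM in nse4a-2_zeb and 6.17 and 3.46 CPM in WT_ctrl, with EXP7 and RHD6 at 0 reads in nse4a-2_zeb. Of the 3 root markers tested, 1 was called higher and 1 lower. COBL9, a root hair gene, had 2.41 and 3.52 CPM in nse4a-2_zeb and 0.33 and 0.64 CPM in WT_ctrl (log2 2.62), a call lost without nse4a-2_zeb R2 (log2 2.32) or WT_ctrl R1 (2.21). COBL9 made most of the summed root marker level in nse4a-2_zeb but not in WT_ctrl, so the sums do not show that the other root markers were alike. PRP3, a cell wall protein gene of root hairs, had 0.127 and 0.173 against 2.97 and 1.47 CPM (log2 −3.83), a call lost without nse4a-2_zeb R1 (log2 −3.64), nse4a-2_zeb R2 (−4.06) or WT_ctrl R1 (−3.21). Among the largest falls were extensin and root hair genes: AT1G23720, an extensin-like gene, had no reads in nse4a-2_zeb, 2.16 and 4.27 CPM in nse4a-2_ctrl, 0.147 and 5.03 CPM in WT_zeb, and 5.45 and 3.52 CPM in WT_ctrl. Against the floor it was at least 50.3-fold lower, and it was not called without either nse4a-2_zeb library. RHS19 was at least 23.2-fold lower and PRP1 at least 20.6-fold lower. Whether leftover leaf or root tissue has a part in these values was not tested.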

How the data were processed

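The series lists 1 sample for each of 4 groups, and the deposited table gives each group as biological replicates R1 and R2, per the file headers, so 8 libraries were used. The authors deposited raw read counts per gene and FPKM values (unit given in the file headers). The submitters' processing notes name TopHat2, Cuffdiff and the build TAIR10. The counter, the annotation and the use of strand are not given in the sources used here, so reads of overlapping or antisense genes cannot be told apart. Of 32399 genes listed, 43 had no values, and 8190 had 0 counts in all 8 libraries. A further 14 per-sample columns were not used.

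Counts were fitted with edgeR 4.0.16 (R 4.3.3, TMM scaling, filterByExpr, quasi-likelihood test, all 4 groups in 1 model), which tested 19682 genes with a common biological coefficient of variation of 13.4%, and p-values were adjusted by Benjamini-Hochberg over all of them at 0.05. Levels are in CPM. The error given as SE of a log2 fold change is approximate: the size of the change divided by the square root of the test's F statistic. The departure is the interaction term. A fold against a group with 0 reads used a floor of 3 counts over its 2 libraries, and this floor and all 95% intervals cover counting error only. The simulated-data check of the scripts used fixed seeds. Alternatives were DESeq2 1.42.0, other size factors, no filter, the 4 libraries alone, a replicate block, each library left out, and the authors' FPKM with a 2-fold rule. Same-numbered libraries of different groups had correlations of their deviations from −0.111 to 0.318. The labels do not say that equal numbers mark a shared batch, and the numbers were not taken as pairs. With a replicate block, calls rose from 617 to 1159 for mutation alone, 452 to 955 for drug alone and 152 to 456 for departures. A shared difference between R1 and R2 was not tested by itself.

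Lists held 389 symbols, of which 378 matched the table. Members, lists and tests were chosen with earlier results of these data known. Genes named were the SMC5/6 subunits and the 12 largest rises and falls among called genes with at least 1 CPM. Those rises and falls also had to show no overlap between the nse4a-2_zeb and WT_ctrl libraries, so their separation is part of the choice. Also named were the 6 largest differences in CPM each way, up to 4 members of each list, and genes called against every other group (5 each way). The last were 3 genes called in opposite directions under each change alone and the 5 largest departures each way. Not all of these genes are printed. Further list members, those not called and those with a central role among them, were named after their values were seen. Promoters came from the RefSeq TAIR10.1 genome, where 31912 genes of the table were found by locus tag.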

Additional observations from a re-analysis of the deposited data

Results flagged for a closer look

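Of the genes picked by the naming rules, 14 had a called interaction term in edgeR. For these, the change under mutation plus drug departed from the sum of the changes under each alone. Over all genes 152 departures were called (0.772%), 108 above and 44 below the sum, and the count was between 5 and 230 when 1 library was left out, so single departures rest on few libraries.

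Above the sum lay several genes that were near 0 unless both were present. CRK36, a cysteine-rich receptor-like kinase gene, had 9.27 and 14 CPM in nse4a-2_zeb, 0.127 and 0.371 CPM in nse4a-2_ctrl, 0.392 and 0.273 CPM in WT_zeb, and 0.165 and 0.512 CPM in WT_ctrl, a departure of 5.47 on the log2 scale (edgeR adjusted p = 0.0365). Its relative CRK12 had 5.65 and 7.15 CPM in nse4a-2_zeb and 0.22 and 0.576 CPM in WT_ctrl, with a departure of 5.13 (edgeR adjusted p = 0.0359). CYP76C2, a P450 gene, had 19.2 and 24.8 CPM in nse4a-2_zeb and no more than 1.81 CPM in any other library, with a departure of 3.79 (edgeR adjusted p = 0.0262). AT3G60420, annotated in the phosphoglycerate mutase family, had 80.7 and 131 CPM in nse4a-2_zeb, 2.8 and 3.4 CPM in nse4a-2_ctrl, 1.47 and 1.97 CPM in WT_zeb, and 0.716 and 0.576 CPM in WT_ctrl, with a departure of 3.71 (edgeR adjusted p = 0.0298). The root marker COBL9 had 2.41 and 3.52 CPM in nse4a-2_zeb and 0.33 and 0.64 CPM in WT_ctrl, with a departure of 5.77 (edgeR adjusted p = 0.0362). It had only 4 and 2 reads in nse4a-2_ctrl and 4 and 1 reads in WT_zeb. COBL9 rose by 2.62 over WT_ctrl, less than its departure, because the latter also holds falls under mutation (−1.31) and drug (−1.84). Neither fall was called, and both rest on these few reads. The change of COBL9 over WT_ctrl was smaller without nse4a-2_zeb R2 (log2 2.32) or WT_ctrl R1 (2.21), and its call was lost. AT4G30650 departed by 2.39 (edgeR adjusted p = 0.031), the receptor gene EFR by 1.89 (0.0463) and the sucrose synthase gene SUS1 by 1.45 (0.0207).

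Of the genes called below the sum, 6 were picked by the naming rules and are given here. HY5, a bZIP factor of light signalling, had 4.13 and 3.69 CPM in nse4a-2_zeb, 14.7 and 16.6 CPM in nse4a-2_ctrl, 8.53 and 7.44 CPM in WT_zeb, and 9.8 and 10.2 CPM in WT_ctrl, with a departure of −1.67 (edgeR adjusted p = 0.0239). CGA1, a cytokinin-responsive GATA factor gene, had 4.51 and 4.32 CPM in nse4a-2_zeb, 16.1 and 19.4 CPM in nse4a-2_ctrl, 15.2 and 10.2 CPM in WT_zeb, and 14.7 and 12.7 CPM in WT_ctrl, with a departure of −1.90 (edgeR adjusted p = 0.029). UNE10, a bHLH gene, rose under each change alone, and under both it had 9.27 and 9.74 CPM in nse4a-2_zeb against 3.25 and 3.39 CPM in WT_ctrl, a departure of −2.17 (edgeR adjusted p = 0.0207). AT3G28160, annotated as a copia-like retrotransposon, had 22.5 and 24.2 CPM in nse4a-2_zeb, 32.4 and 39.2 CPM in nse4a-2_ctrl, 19 and 21.6 CPM in WT_zeb, and 10.3 and 9.22 CPM in WT_ctrl, with a departure of −1.67 (edgeR adjusted p = 0.018). AT4G30250, an ATPase-like gene, had 5.97 and 4.09 CPM in nse4a-2_zeb and 13.3 and 11.3 CPM in WT_ctrl, with a departure of −1.82 (edgeR adjusted p = 0.0263). The histone H4 gene AT5G59970 departed by −1.03 (edgeR adjusted p = 0.0372).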

How the results depend on the processing

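Of the genes picked by the naming rules, 150 were called, and none of these changed direction in any of 13 settings. Of these, 105 kept their call in all and 45 lost it in at least 1, 9 of them in DESeq2. Calls were lost most often where 1 library of nse4a-2_zeb or WT_ctrl was left out. Not all of these genes are printed, and list members named after their values were seen are not in this count. The 6613 calls were 5602 in DESeq2 (5403 shared), 6524 with RLE size factors, 7854 with the 4 libraries alone, 2681 at 2-fold or more, 2264 by the authors' FPKM at 2-fold with no test, and 3146 to 7117 with 1 library left out. Calls for mutation alone (617) were 967 in DESeq2, 1297 without the filter and 130 to 823 with 1 library left out. Calls for drug alone (452) were 867, 1127 and 23 to 526, and called departures (152) were 485, 577 and 5 to 230, in the same order. With the replicate block, which allows a difference between R1 and R2 common to all groups, they were 6749, 1159, 955 and 456. With 1 library left out, lower calls ranged from 3 to 5 for kinase inhibitors (3 in DESeq2), 3 to 9 for methylation, 6 to 14 for replication, 3 to 5 for stomata and 3 to 5 for response regulators. Higher calls ranged from 7 to 12 for the clock, 3 to 9 for jasmonate (11 without the filter) and 8 to 19 for transposable elements. Among genes not called, with 1 library left out, SMC6A ranged from −0.22 to 0.07, SDC from −2.04 to 0.13, FLC from −0.06 to 1.01 and RHS2 from −0.70 to 0.78 on the log2 scale, and RHS2 was at −0.05 with the block. The causes were not tested. Levels near 0.147 to 0.192 CPM rest on about 3 reads in a library.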
